A study of Mus musculus with 4 samples.

Results

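The neurons described here are the nuclei of the neuronal cluster that the study's annotation names Gcg/Reln, in single-nucleus RNA sequencing of the posterior hindbrain. They were chosen by this annotation and the study's quality filter, and number 89 of 39461 kept nuclei and of 12539 neurons. The control libraries 1 and 2 held 23 and 24 of them and those of AgRP-Gq;POMC-Gi mice, here Gq/Gi libraries 1 and 2, held 14 and 28. Values of all 4 libraries are given in this order. AgRP-Gq;POMC-Gi mice (AgRP-IRES-Cre+/-;hM3DGqfl/-;POMC-Dre+/-;hM4DGifl/-) carry an activating receptor for clozapine N-oxide (CNO) switched on by Cre in AgRP neurons and an inhibiting one switched on by Dre in POMC neurons. The control mice are labelled WT and, by the study's methods, lacked Cre and Dre but carried both receptor alleles. All were mice of 12 to 20 weeks that received CNO at 3 mg per kg 1 h before the area postrema and nucleus of the solitary tract (NTS) were taken. The drivers are the *Agrp* and *Pomc* promoters, and which hindbrain nuclei carried a receptor was not examined here. Counts of *Agrp* in the cluster are given below with the neuropeptide genes. Mice within a condition were pooled, and the sources do not say which went into which library. The library was therefore the replicate (n = 2 per group), and p-values measure only the spread between libraries, which may be technical.

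*Gcg* encodes preproglucagon, the precursor that prohormone convertases cut into glucagon-like peptides. In the brain it is made by a small group of neurons in the caudal NTS and neighbouring reticular formation, which are known for glutamatergic signalling and for reducing food intake when activated. *Reln* encodes reelin, a large secreted glycoprotein that binds lipoprotein receptors and signals through the adaptor *Dab1*. Immediate early genes (IEGs) such as *Fos* are transcribed within minutes of strong neuronal activity and serve as its marker.

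The transcript with the largest difference between groups among the 6 IEGs of the study that could be tested, *1700016P03Rik*, is a non-coding RNA (ENSMUSG00000085609; GRCm38 chromosome 11, 75172560 to 75177633, plus strand) that hosts the microRNAs miR-212 and miR-132. Both hairpins lie in its introns. Their mature sequences, from RefSeq on GRCm38.p6, are shown because a nuclear library detects the host and not the microRNAs it gives rise to. Capitals mark the seed, bases 2 to 8.
mmu-miR-212-5p: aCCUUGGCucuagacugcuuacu
mmu-miR-212-3p: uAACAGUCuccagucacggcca
mmu-miR-132-5p: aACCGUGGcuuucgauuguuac
mmu-miR-132-3p: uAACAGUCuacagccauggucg
The 3p arms of both microRNAs share the seed AACAGUC, whereas the 5p arms each have their own. On chromosome 11 the arms lie at 75173403 to 75173425 and 75173443 to 75173464 for miR-212, and at 75173686 to 75173707 and 75173723 to 75173744 for miR-132.

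The median nucleus of the Gcg/Reln cluster had 9326, 8751, 9987 and 10645.5 unique molecular identifiers (UMIs, counted RNA molecules) in the 4 libraries. In sum the cluster held 276498, 252222, 206599 and 348228 UMIs. A single nucleus of Gq/Gi library 1 had 63121 UMIs, 30.6% of that library's sum. *Xist*, the RNA of the silenced X chromosome in female cells, was at 336, 254, 319 and 22.97 CPM in the 4 libraries, where CPM is UMIs of a gene per 1000000 UMIs of the same nuclei. Gq/Gi library 2 thus stood apart from the others. In other neurons *Xist* was at 508, 319, 543 and 16.2 CPM. The paper used male and female mice, but the sex of those in each library is not given in the sources used here. The part of sex in values that rest on Gq/Gi library 2 was not tested and cannot be told apart from that of the library. Between 23 and 41 barcodes recurred in each pair of libraries over all deposited barcodes, and none of them joined 2 nuclei of the Gcg/Reln cluster.

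The label of the cluster was first set against its 2 markers. *Gcg* (ENSMUSG00000000394; GRCm38 chromosome 2, 62474530 to 62483650, minus strand) stood at 87.2 ± 64.6 CPM (SD, n = 4 libraries) in the Gcg/Reln cluster and at 0.274 ± 0.214 CPM in all other neurons, the highest level of the 134 neuronal clusters. *Reln* (ENSMUSG00000042453; chromosome 5, 21884454 to 22344702, minus strand) stood at 339 ± 108 CPM against 53.0 ± 4.34 CPM, sixth among the neuronal clusters. Since clusters were built from expression, these differences are a description and were not tested.

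The markers did not occupy the same nuclei. *Gcg* UMIs were found in 14 of the 89 nuclei (15.7%, exact 95% interval 8.88% to 25.0%) and *Reln* UMIs in 50 (56.2%, 45.3% to 66.7%). These intervals cover counting error only. Just 1 nucleus, in Gq/Gi library 2, had both, and 26 had neither. Nuclei with *Gcg* numbered 1, 3, 2 and 8 in the 4 libraries, and those with *Reln* 17, 14, 9 and 10. By detected RNA the name of preproglucagon neurons therefore holds for a minority of the nuclei, and the population is called the Gcg/Reln cluster here. A nucleus without a *Gcg* UMI may still transcribe the gene below what its depth detects. The median was 11900 UMIs in nuclei with *Gcg* and 9326 in nuclei without.

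**Figure D1:**
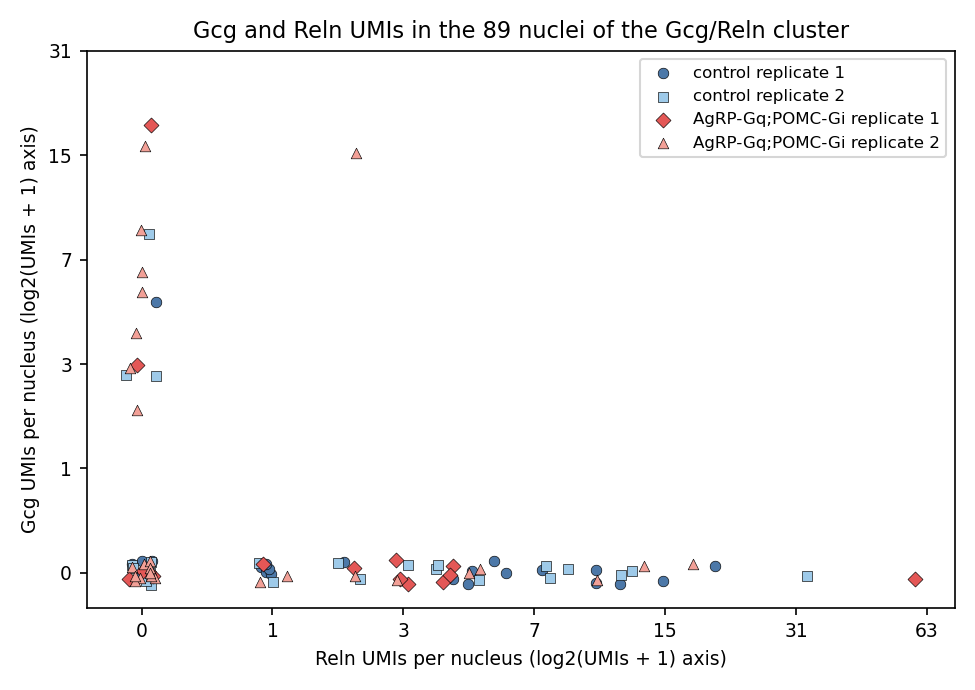
*Reln* UMIs (x axis) against *Gcg* UMIs (y axis) in each of the 89 nuclei of the Gcg/Reln cluster, both on a log2(UMIs + 1) axis with points spread slightly, coloured by library. Of the 14 nuclei with *Gcg*, 13 lie along the y axis, 49 of the 50 nuclei with *Reln* lie along the x axis, and 1 nucleus lies off both.

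These 14 nuclei held 100 of the 195 *Gcg* UMIs of all nuclei kept. Outside the Gcg/Reln cluster, 90 nuclei had a *Gcg* UMI, none with more than 2. They were spread over 36 neurons, 32 oligodendrocytes, 9 astrocytes and other cell types. The share of nuclei with a UMI was 0.289% in other neurons, with a median of 8698.5 UMIs, and 0.190% in oligodendrocytes, which should lack the gene, with a median of 2460 UMIs. Among nuclei thinned to 2000 UMIs the shares were 10.1% in the Gcg/Reln cluster, 0.0570% in other neurons and 0.114% in oligodendrocytes. Shallower nuclei were left out, none of the cluster, 166 of the other neurons and 5416 of the 16816 oligodendrocytes. Among the thinned nuclei, the share in other neurons was below that in oligodendrocytes, from 7 and 13 nuclei, the reverse of the order before thinning. Thinning also removes more UMIs from the deeper neurons than from oligodendrocytes. These shares therefore cannot show whether *Gcg* in other neurons is background.

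The 25 genes with the largest fold of the Gcg/Reln cluster over other neurons were taken where 25% or more of each library's nuclei had a UMI. All were above other neurons in each library, beside 7.88% of all genes found in 5% of the nuclei or more. They were picked by their fold in these same libraries, so this follows largely from the choice. *Frem1*, an extracellular matrix gene, stood at 73.6 ± 18.3 CPM against 5.78 ± 1.47 CPM, a fold of 11.0 on CPM + 1, and was highest in the Gcg/Reln cluster of all neuronal clusters. *Col11a1*, a fibrillar collagen chain, stood at 792 ± 160 CPM against 151 ± 17.4 CPM, and ranked second. *Rgs20*, a regulator of G protein signalling, stood at 159, 206, 208 and 405 CPM in the 4 libraries against 73.6 ± 5.60 CPM, and ranked first. The glypicans *Gpc5* and *Gpc6*, cell-surface proteoglycans, were 3.44 and 3.23 times as high as in other neurons, and the heparan sulphate sulphotransferases *Ndst3* and *Ndst4* were 2.88 and 2.57 times as high. *Cdh9*, a classical cadherin, was 3.32 times as high, and the transcription factor *Bcl11b* 3.32 times. *Esr1*, the oestrogen receptor alpha, stood at 78.2 ± 31.6 CPM against 30.1 ± 3.17 CPM. *Gpc5* is also on the list of astrocyte markers used here.

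**Figure D2:**
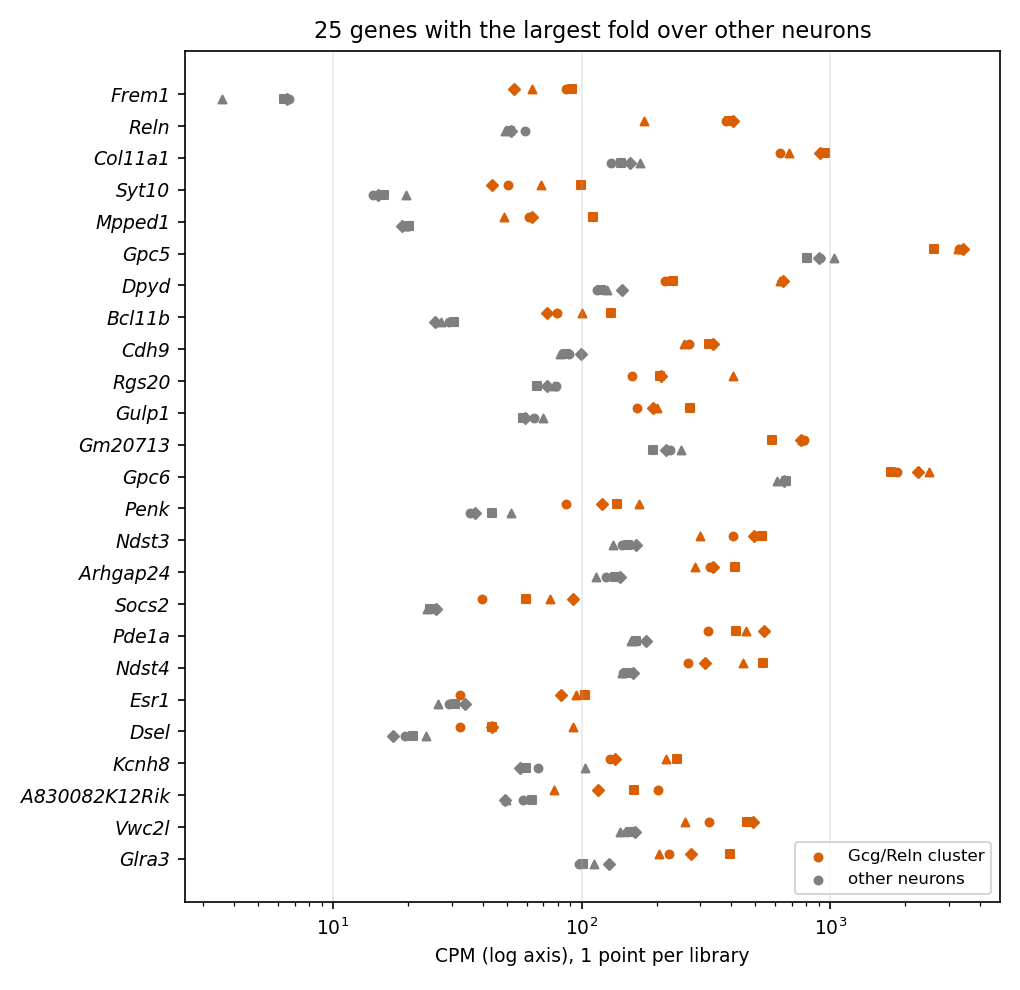
CPM on a log axis of the 25 genes with the largest fold over other neurons, with 1 point for each of the 4 libraries in the Gcg/Reln cluster (orange) and in all other neurons (grey). Point shapes are the libraries as in the plot of *Gcg* against *Reln* UMIs, and *Frem1* shows the widest separation, at 73.6 against 5.78 CPM.

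Fast transmitter genes marked the Gcg/Reln cluster as glutamatergic. *Slc17a6*, the vesicular glutamate transporter VGLUT2, had a UMI in 68.5% of the nuclei and stood at 118 ± 8.92 CPM against 75.6 ± 3.27 CPM in other neurons, higher in each of the 4 libraries. *Slc32a1*, the vesicular GABA and glycine transporter, had 1 UMI in the cluster. *Slc6a5*, the glycine transporter GLYT2, had 4 UMIs in 3 nuclei, whereas 32.9% of other neurons had one. *Gad1* and *Gad2*, which make GABA, stood at 8.52 ± 5.54 and 45.2 ± 12.0 CPM, below the 51.0 ± 3.35 and 95.8 ± 1.82 CPM of other neurons. Of 13 monoamine and acetylcholine genes listed, 5 had a UMI and 4 were found in 5% of the nuclei or more. Of these 4, 2 were above and 1 below other neurons in each library, against 7.88% and 10.9% of all genes. The cholinergic genes *Slc5a7*, the choline transporter, and *Chat* stood at 31.7 ± 14.4 and 13.6 ± 5.41 CPM, against 9.33 ± 2.82 and 5.15 ± 0.517 CPM in other neurons. Both rest on few UMIs.

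Of 43 neuropeptide genes listed, 26 had a UMI and 13 had one in 5% of the nuclei or more. Apart from *Gcg*, which named the cluster, *Penk*, the enkephalin precursor, was the 1 of the other 12 above other neurons in each library, near the 7.88% of all genes found in 5% of the nuclei, at 129 ± 34.5 CPM against 42.1 ± 7.49 CPM. *Cartpt* and *Cck*, satiety peptide genes of the NTS, were at 10.5 ± 7.82 and 6.51 ± 7.45 CPM against 16.0 ± 6.04 and 12.3 ± 3.05 CPM. *Cck* had 6 UMIs in 5 of the 14 nuclei with *Gcg*, 33.6 CPM, all in Gq/Gi libraries, and 2 UMIs in the 75 without. The driver gene *Agrp* had 13 UMIs in 7 of the nuclei with *Gcg* and 89 UMIs in 45 of those without, 72.7 and 98.4 CPM. Whether these counts mean that the driver was active in these nuclei was not tested. Among 20 genes of peptide processing and granules, *Pcsk1*, which encodes prohormone convertase 1/3, was at 83.7 ± 48.5 CPM against 35.2 ± 9.78 CPM. *Pam*, the amidating enzyme that completes many neuropeptides, was at 499 ± 170 CPM against 277 ± 14.6 CPM. *Scg2*, *Scg5*, *Cpe* and *Cadps* were among the 5 of 19 detected members below other neurons in each library, against 10.9% of all genes. Over the list the median log2 fold was -0.08, beside 0.0049 over all 12303 genes detected in 5% of the nuclei.

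Among receptors for feeding signals, *Lepr*, the leptin receptor, was at 47.1 ± 26.1 CPM against 17.5 ± 2.09 CPM, but below other neurons in control library 1. *Calcr*, the calcitonin receptor, was at 21.3 ± 17.8 CPM against 4.79 ± 1.22 CPM. Its 20 UMIs lay in 8 nuclei, all without *Gcg*. *Nmur2*, a neuromedin U receptor, was at 45.5 ± 15.2 CPM against 36.7 ± 2.36 CPM. None of the 8 members detected in 5% of the nuclei was above other neurons in all 4 libraries. The receptors for products of *Gcg* had few counts. *Glp1r* had 1 UMI, *Glp2r* had 4 and *Gcgr* had none, and *Gipr*, the receptor of the other incretin, had 1. Of other peptide receptors, *Oprm1*, the mu opioid receptor, was at 233 ± 38.9 CPM against 105 ± 3.88 CPM and *Tacr1*, the substance P receptor, at 73.9 ± 32.1 CPM against 18.4 ± 0.903 CPM. *Chrm2*, a muscarinic receptor, was at 566 ± 125 CPM against 258 ± 7.50 CPM. All of these 3 were higher in each library. So were 4 of 14 other peptide receptors detected and 2 of 4 acetylcholine receptors, against 7.88% of all genes. In each of these lists 1 was lower in each library, against 10.9% of all genes.

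Of 60 transcription factor genes used to tell hindbrain lineages apart, 26 were found in 5% or more of the nuclei, with 7 above and 8 below other neurons in each library, beside 7.88% and 10.9% of all genes so detected. *Meis2* was at 827 ± 124 CPM against 349 ± 34.3 CPM and *Pax2* at 113 ± 32.1 CPM against 59.9 ± 4.03 CPM. *Ebf1* and *Zfhx3* were low, at 45.8 ± 29.0 and 52.4 ± 29.3 CPM against 533 ± 119 and 489 ± 20.2 CPM. In the reelin pathway 2 of 18 detected members were above other neurons in each library, against 7.88% of all genes, and they were *Dab1* and *Reln*, which named the cluster. *Dab1*, the intracellular adaptor of the reelin receptors, stood at 1251 ± 124 CPM against 629 ± 29.4 CPM, whereas the receptor gene *Lrp8* was at 88.3 ± 13.7 CPM against 87.9 ± 0.519 CPM.

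In its whole profile the Gcg/Reln cluster was most like clusters 30: Zfp804b/Npas1, 62: Reln/Calcr and 28: Mecom/Sema3a, with Pearson's r of 0.971, 0.970 and 0.969 on log2(CPM + 10) over 17109 genes. These are correlations across genes, which are not independent replicates. All 3 were glutamatergic by *Slc17a6*, at 135, 171 and 161 CPM against 10.2, 2.07 and 3.46 CPM for *Slc32a1*. When the nuclei of the Gcg/Reln cluster were taken apart, those without *Gcg* were most like cluster 62: Reln/Calcr (r = 0.971). Those with *Gcg* had lower correlations throughout, led by 41: Ryr1/Tfap2b and 53: Gal/Dkk2 (r = 0.900 and 0.899). Cluster 41 was GABAergic or glycinergic by these genes, with *Slc17a6* at 10.8 and *Slc32a1* at 44.2 CPM, and cluster 53 glutamatergic, at 172 and 1.49 CPM. Their sum held 178702 UMIs against 904845 for the nuclei without *Gcg*, and the part of depth in the lower values was not tested.

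The 14 nuclei with *Gcg* and the 75 without differed in much more than *Gcg* and *Reln*. The genes given for this contrast were named after their values were seen, and no test was made because nuclei of a library are not replicates. The contrast mixes the groups, since 10 of the 14 nuclei with *Gcg* and 32 of the 75 without came from Gq/Gi libraries. *Lepr* had 38 UMIs in 10 of the 14 nuclei, 213 CPM, and 14 UMIs in 13 of the 75, 15.5 CPM. *Prlr*, the prolactin receptor, had 116 UMIs in 13 of 14 nuclei, 649 CPM, and 44 in 10 of 75, 48.6 CPM. *Esr1* was at 313 against 32.0 CPM and *Stat3*, a transcription factor that the leptin receptor acts through, at 196 against 22.1 CPM. In controls alone *Prlr* was at 618 against 20.3 CPM, *Lepr* at 197 against 16.2 CPM and *Esr1* at 449 against 38.5 CPM, while *Stat3* had 3 UMIs in the nuclei with *Gcg*. More UMIs of each of these 4 genes lay in the 14 nuclei with *Gcg* than in the 75 without.

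Of peptide processing genes, *Pcsk1* was at 269 CPM in nuclei with *Gcg* and 50.8 CPM in those without, and *Pam* at 1332 against 339 CPM. In controls alone *Pcsk1* was at 84.2 against 40.6 CPM, from 3 and 20 UMIs, and *Pam* at 618 against 333 CPM, so both contrasts were smaller there. *Pcsk2*, encoding prohormone convertase 2, went the other way, at 44.8 against 584 CPM. *Cadps*, which primes granule release, differed less, at 929 against 1237 CPM. Prohormone convertase 1/3 is the enzyme that releases glucagon-like peptide 1 from preproglucagon, and convertase 2 the one that releases glucagon. *Penk* was found in 13 of 14 nuclei with *Gcg* and in 39 of 75 without. *Slc17a6* was found in 12 of 14 and 49 of 75 nuclei. *Gad2* was found in 11 of 14 and 15 of 75 nuclei, at 179 against 19.9 CPM, so in the nuclei with *Gcg* it lay above the 95.8 CPM of other neurons, of which 38.6% had a UMI. *Slc32a1* had no UMI in the 14. That count of 0 allows up to 16.8 CPM. *Cfap54*, a gene of cilia, had 75 UMIs in the 14 nuclei and 11 in the 75, and *Nnat*, an imprinted gene, 65 and 31.

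Other genes lay in the nuclei without *Gcg*, among them *Frem1*, *Col11a1* and *Reln* of the 25 genes above. *Frem1* had 80 UMIs in them and none in the 14 nuclei with *Gcg*, so it was at least 5.27-fold lower in the latter against the floor of 3 UMIs over the 14 nuclei. *Pax2* had 120 UMIs in 45 of the 75 nuclei and none in the 14, at least 7.90-fold lower. *Col11a1* had 833 UMIs in 63 of the 75 nuclei, 921 CPM, and 5 UMIs in 3 of the 14. *Pbx3*, a homeobox gene, was at 250 against 22.4 CPM. *Rbfox1*, a neuronal splicing regulator, was at 4730 CPM in nuclei without *Gcg* and 470 CPM in nuclei with it. *Slc5a7* had 33 UMIs, all in nuclei without *Gcg*, at least 2.17-fold lower in those with it, and the 14 UMIs of *Chat* were too few to tell the nuclei apart.

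**Figure D3:**
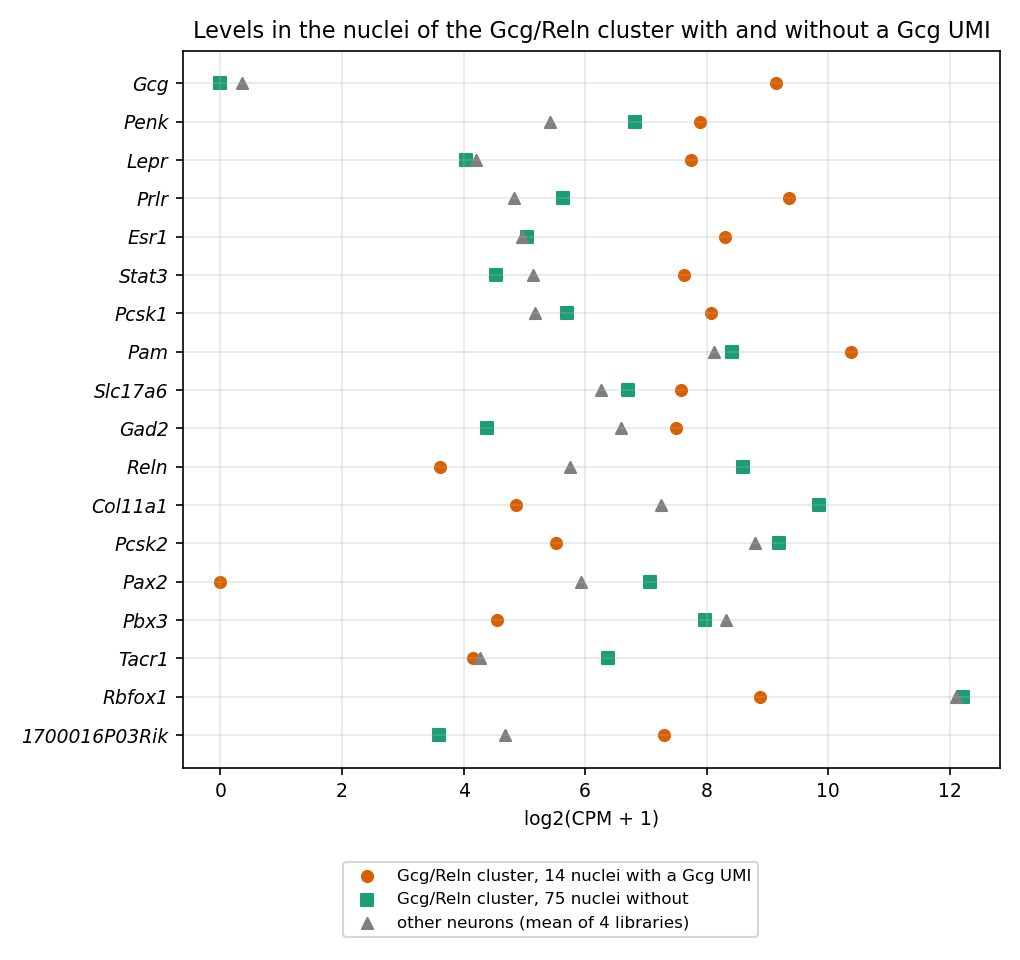
log2(CPM + 1) of 18 genes in the 14 nuclei of the Gcg/Reln cluster with a *Gcg* UMI (circles), the 75 without (squares) and all other neurons (triangles, mean of 4 libraries). *Lepr*, *Prlr*, *Esr1* and *Stat3* lie to the right in the nuclei with *Gcg*, where *Prlr* was at 649 CPM, and *Reln*, *Col11a1* and *Pax2* lie to the right in those without.

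The study compared AgRP-Gq;POMC-Gi with control mice to ask which hindbrain neurons respond to joint AgRP activation and POMC inhibition. UMIs of the Gcg/Reln cluster were summed per library and tested with edgeR's quasi-likelihood test over the 12303 genes found in 5% or more of its nuclei. *Prlr*, *Dpyd* and *Efna5* rose in AgRP-Gq;POMC-Gi mice at an adjusted p under 0.05 (0.0244% of genes tested) and none fell. At an unadjusted p under 0.05, 314 genes were higher (2.55%) and 329 lower (2.67%). The count of calls was unstable, at 0 with DESeq2 (86 genes at an unadjusted p under 0.05), 0 with the replicate number as a block (299), and 5, 14, 29 and 39 without control library 1, control library 2, Gq/Gi library 1 and Gq/Gi library 2.

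*Prlr* stood at 50.6 and 71.4 CPM in controls and at 252 and 218 CPM in the Gq/Gi libraries. The groups did not overlap, which was true in the same direction of 13.2% of genes tested. The log2 difference was 2.04 ± 0.33 (SE), with an edgeR adjusted p of 0.0137. The difference was 2.19 without Gq/Gi library 2 and 1.82, short of the threshold, without control library 1. Of the 52 *Prlr* UMIs of Gq/Gi library 1, 32 came from 1 nucleus. Nuclei with *Gcg* held 116 of the 160 *Prlr* UMIs. In these nuclei *Prlr* was at 1143, 489, 1166 and 469 CPM in the 4 libraries, so the groups overlapped there. In other neurons *Prlr* was at 28.7, 28.4, 26.9 and 26.1 CPM in the 4 libraries.

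*Dpyd*, encoding the enzyme that begins pyrimidine breakdown, stood at 217 and 234 CPM in controls and 644 and 629 CPM in the Gq/Gi libraries. Here too both Gq/Gi libraries were above both controls, by a log2 difference of 1.60 ± 0.27 (edgeR adjusted p = 0.0164). Without control library 1 the difference was 1.56 and fell short of the threshold. Of the 133 *Dpyd* UMIs of Gq/Gi library 1, 73 came from 1 nucleus. Within nuclei with *Gcg*, *Dpyd* was at 286, 524, 2281 and 1407 CPM in the 4 libraries. The groups did not overlap there, but the first value rests on 2 UMIs of 1 nucleus. *Efna5*, an ephrin ligand of axon guidance, stood at 90.4 and 63.4 CPM and at 324 and 221 CPM, a log2 difference of 1.90 ± 0.33 (edgeR adjusted p = 0.0164). Its level stayed below that of other neurons (257, 243, 283 and 330 CPM) in each library but Gq/Gi library 1. Of its 67 UMIs in Gq/Gi library 1, 47 came from the deepest nucleus, and without that nucleus the difference was 1.33 (adjusted p = 0.0308). Without control library 2 the adjusted p of *Efna5* was 0.0660.

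*Gcg* itself was at 18.1 and 59.5 CPM in controls and 102 and 169 CPM in the Gq/Gi libraries, from 5, 15, 21 and 59 UMIs. The groups did not overlap, but the difference of 1.96 ± 0.41 did not pass adjustment (edgeR adjusted p = 0.112). It passed without the nucleus of most UMIs, where 23 genes were called (2.11, adjusted p = 0.000144), without control library 2 (2.99, adjusted p = 0.000771), without Gq/Gi library 1 (2.17, adjusted p = 0.000459), with no TMM factors (adjusted p = 0.0128), no filter on genes (adjusted p = 0.00138) and a filter at 10% of the nuclei (adjusted p = 0.0243). It did not without control library 1 (1.33, adjusted p = 0.618) or Gq/Gi library 2 (1.55, adjusted p = 0.261), with filterByExpr (adjusted p = 0.153), the replicate block (adjusted p = 0.962) or DESeq2 (adjusted p = 1.00). Other neurons held 0.113 and 0.0736 CPM in controls and 0.509 and 0.401 CPM in the Gq/Gi libraries. The difference between the effects was -0.30 ± 0.78 (edgeR adjusted p = 0.994). *Gcg* in other neurons rests on 37 UMIs in 36 nuclei, and whether these are background is not known. This value therefore cannot show whether the difference was particular to the cluster. The level per nucleus with *Gcg* was 714, 524, 544 and 565 CPM in the 4 libraries. These levels overlapped between the groups. Nuclei with *Gcg* made up 0.0405% and 0.110% of neurons in controls and 0.0541% and 0.220% in the Gq/Gi libraries, which overlap. Within the cluster they were 1 of 23 and 3 of 24 nuclei in controls and 2 of 14 and 8 of 28 in the Gq/Gi libraries. These shares did not overlap, so the make-up of the cluster moved with the groups, though from few nuclei. In counts summed over the cluster, a change in the number of such cells and one in the RNA per cell cannot be told apart. *Reln* stood at 380 and 393 CPM in the controls and at 407 and 178 CPM in the Gq/Gi libraries, a log2 difference of -0.32 ± 0.32 (edgeR adjusted p = 0.983). Of the 84 *Reln* UMIs of Gq/Gi library 1, 60 came from the deepest nucleus, and without it the difference was -1.10 (adjusted p = 0.0578).

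The counts were also taken without the 14 nuclei with *Gcg*, an alternative chosen after the data were seen. It leaves out 1, 3, 2 and 8 nuclei of the 4 libraries by a gene whose own CPM did not overlap between the groups, so it is not independent of the groups. In it 1 gene was called in place of 3. *Dpyd* then differed by 0.54 (adjusted p = 0.983) and *Prlr* by 2.04 (adjusted p = 0.227). Of the 44 *Prlr* UMIs then left, 27 came from 3 nuclei of Gq/Gi library 2. *Efna5* alone remained past the threshold (2.08, adjusted p = 0.00296), with 47 of its UMIs still from the deepest nucleus. *Pcsk1* and *Pam*, at 1.61 ± 0.37 and 0.98 ± 0.26 in the whole cluster (edgeR adjusted p = 0.134 and 0.339), had 37 of 49 and 138 of 227 UMIs of Gq/Gi library 2 in nuclei with *Gcg*, and 8 of 22 and 78 of 132 UMIs of Gq/Gi library 1. *Pcsk1* differed by 0.74 without these nuclei (adjusted p = 0.983). *Lepr*, at 10.9 and 47.6 CPM in controls and 58.1 and 71.8 CPM in the Gq/Gi libraries, differed by 1.29 ± 0.50 in the whole cluster (adjusted p = 0.796), by 0.58 without control library 1 and by 2.63 without control library 2, and by -0.082 without the nuclei with *Gcg*.

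**Figure D4:**
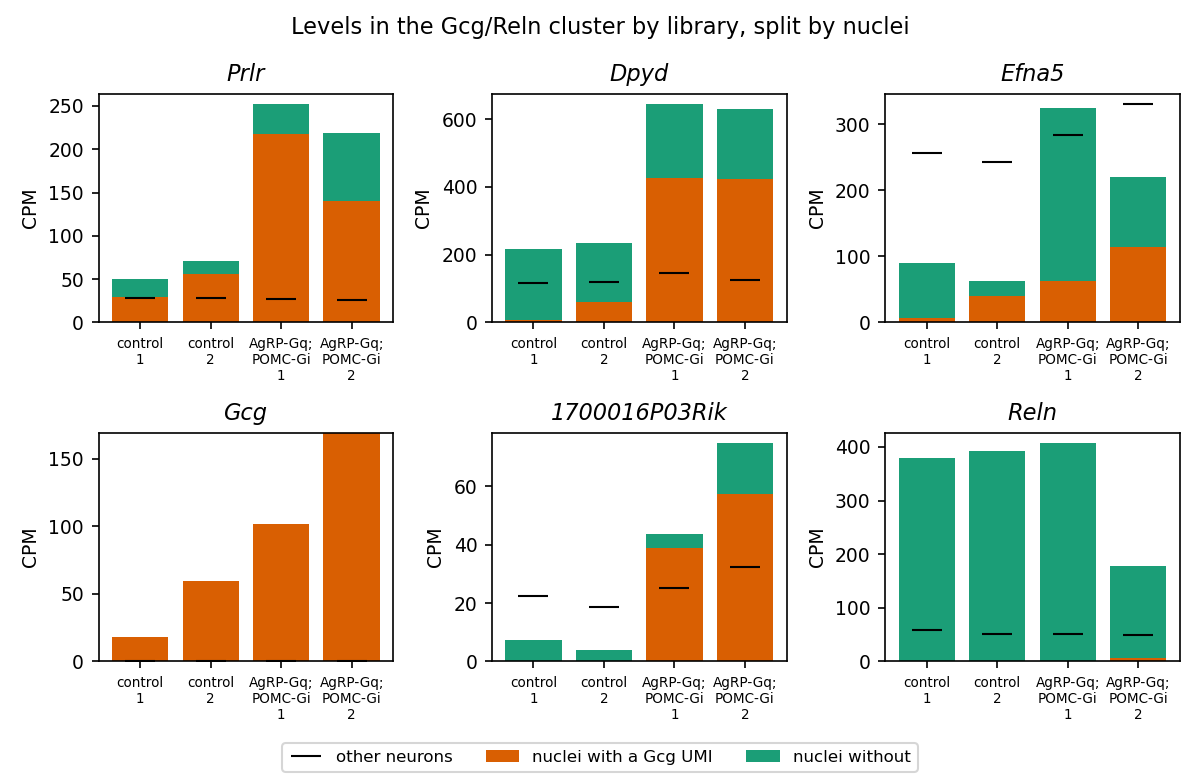
CPM in the Gcg/Reln cluster in each library for 6 genes, with the bar split into UMIs from nuclei with *Gcg* (orange) and without (green), and a black line at the level in other neurons of the same library. The orange part of *Prlr*, *Dpyd* and *1700016P03Rik* is larger in both Gq/Gi libraries, *Gcg* is orange by definition, and *Reln* lies almost wholly in the green part.

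The study scored neuronal clusters by unadjusted p-values of 10 IEGs in these same libraries. It reported the highest score among its glutamatergic candidates for this cluster, so the values here are not independent of that score. Of the 10 IEGs, all had a UMI in the Gcg/Reln cluster and 6 reached the detection minimum. None of the 6 was called, and 2 of them, *1700016P03Rik* and *Homer1*, had both Gq/Gi libraries above both controls, against 13.2% of all genes tested. *1700016P03Rik* had 2 and 1 UMIs in controls and 9 and 26 in the Gq/Gi libraries, that is 7.23 and 3.96 CPM against 43.6 and 74.7 CPM. The difference of 3.42 ± 0.67 on the log2 scale had an edgeR adjusted p of 0.0742. It passed the threshold without the nucleus of most UMIs (adjusted p = 0.000638), without Gq/Gi library 1 (adjusted p = 0.00202), with no TMM factors (adjusted p = 0.0108), no filter on genes (adjusted p = 0.00142) and a filter at 10% of the nuclei (adjusted p = 0.0222). It did not without Gq/Gi library 2 (2.97, adjusted p = 0.209), control library 1 (adjusted p = 0.0744) or control library 2 (adjusted p = 0.138), with filterByExpr (adjusted p = 0.109), the replicate block (adjusted p = 0.962) or DESeq2 (adjusted p = 1.00). Other neurons held 22.4 and 18.8 CPM in controls and 25.2 and 32.4 CPM in the Gq/Gi ones.

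The UMIs of *1700016P03Rik* lay mainly in the nuclei with *Gcg*, which held 28 of 38. All 28 were in Gq/Gi libraries, 8 in both of the 2 nuclei of library 1 and 20 in 5 of the 8 nuclei of library 2. The 4 control nuclei with *Gcg* had none, but their 35620 UMIs allow up to 84.2 CPM, against 207 and 191 CPM in the Gq/Gi libraries. In nuclei without *Gcg* the counts were 2 and 1 in the controls and 1 and 6 in the Gq/Gi libraries, a log2 difference of 1.46 (edgeR adjusted p = 0.983). *Fos* was found in nuclei with *Gcg* alone. It had 7 UMIs in the cluster, in 3 nuclei of Gq/Gi library 2, each with *Gcg*, and too few nuclei had one for it to be tested. *Fos* was found in 4.23% of other neurons, with a median of 8698.5 UMIs, and in 0.440% of oligodendrocytes. In other neurons it was at 5.76, 5.22, 5.29 and 8.16 CPM in the 4 libraries, also highest in Gq/Gi library 2.

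*Nr4a1*, an orphan nuclear receptor induced by activity, had 2 and 1 UMIs in the controls and 0 and 12 in the Gq/Gi libraries, 5 of the 12 in nuclei with *Gcg*. All of its Gq/Gi UMIs were in library 2, and its difference of 1.87 ± 1.00 was not called (edgeR adjusted p = 0.964). In other neurons *Nr4a1* was at 15.8, 12.5, 13.4 and 19.6 CPM in the 4 libraries, also highest in Gq/Gi library 2. *Homer1*, a scaffold of excitatory synapses with an activity-induced short form, stood at 57.9 and 79.3 CPM against 82.3 and 94.8 CPM, a difference of 0.48 ± 0.36 (adjusted p = 0.967). *Junb*, *Jun* and *Btg1* differed by 0.80 ± 0.87, 0.39 ± 1.14 and -0.16 ± 0.73 and were not called. *Fosl2*, *Nr4a3* and *Gem* had 4, 1 and 3 UMIs in all, none of them in controls, and were not tested. Of 40 other genes induced by activity, 20 were tested and none was called, beside 0.0244% of all genes. At an unadjusted p under 0.05, 3 of the 20 were higher and 0 lower, beside 2.55% and 2.67% of all genes. Both Gq/Gi libraries lay above both controls for 4 and below both for 1, beside 13.2% and 21.9%. *Pcsk1* and *Vgf* are among them, and *Vgf* had 5 and 2 UMIs in the controls and 2 and 21 in the Gq/Gi libraries, 16 of the 21 in nuclei with *Gcg*.

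**Figure D5:**
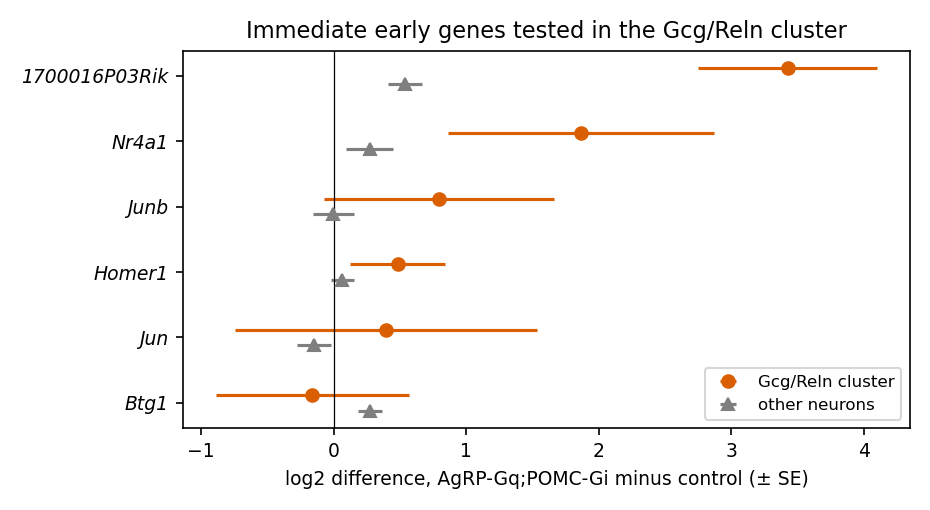
log2 difference between AgRP-Gq;POMC-Gi and control libraries (x axis, ± SE from edgeR) of the 6 IEGs tested, in the Gcg/Reln cluster (circles) and in other neurons (triangles). *1700016P03Rik* lies farthest to the right in the Gcg/Reln cluster, at 3.42 ± 0.67, and the error bars of *Junb*, *Jun* and *Btg1* cross 0.

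Whether these differences were particular to the Gcg/Reln cluster was tested as the interaction of group and population, with the library as a covariate. The group effect differed from that in other neurons for 6 of 12303 genes (0.0488%), 5 of them higher in the cluster (0.0406%), and for 598 at an unadjusted p under 0.05 (4.86%). *Prlr* differed by 2.10 ± 0.34 (edgeR adjusted p = 0.00192), *Dpyd* by 1.34 ± 0.25 (adjusted p = 0.0133) and *Efna5* by 1.53 ± 0.32 (adjusted p = 0.0463). Without the deepest nucleus that of *Efna5* was 0.98 (adjusted p = 0.507), and without control library 2 it was 1.33 (adjusted p = 0.205). *Efna5* also fell short without TMM factors (adjusted p = 0.0832) and with filterByExpr (adjusted p = 0.0747). *Prlr* differed by 2.00 without Gq/Gi library 1 and 2.23 without Gq/Gi library 2, and *Dpyd* by 1.40 and 1.30. All of these fell short of the threshold. The other 3 were *Dgkb*, *Zfpm2* and *Adarb2*. For *1700016P03Rik* the difference was 2.97 ± 0.73 (adjusted p = 0.248), so it was not shown to respond otherwise than in other neurons. No gene was called in this test without Gq/Gi library 1 and none without the nuclei with *Gcg*, while 1 was called without Gq/Gi library 2, and 16 and 15 without control libraries 1 and 2.

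Levels of RNA from other compartments and cell types also moved with the groups. Mitochondrial genes summed to 1468 and 1915 CPM in controls of the Gcg/Reln cluster and to 450 and 801 CPM in the Gq/Gi libraries. Other neurons held 1227, 1455, 920 and 1200 CPM in the 4 libraries. Of 12 stress and RNA-quality genes, 10 were tested, none was called, and 8 had both Gq/Gi libraries below both controls, against 21.9% of all genes tested. *Hspa8*, a constitutive chaperone, differed by -1.15 ± 0.31 (edgeR adjusted p = 0.339). The 8 oligodendrocyte markers, all with a UMI, summed to 358 and 285 CPM in the controls and 102 and 169 CPM in the Gq/Gi libraries, and in other neurons to 361, 305, 176 and 226 CPM. The 8 astrocyte markers summed to between 2779 and 3500 CPM in all libraries, nearly all of it *Gpc5* (3149 ± 362 CPM). Microglia markers summed to between 155 and 222 CPM with *Tmem119* at 0, OPC markers to between 254 and 528 CPM with *Cspg4* and *Olig2* at 0, and vascular markers to between 3.96 and 28.7 CPM. Their part in the differences between groups was not tested.

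The Gcg/Reln cluster made up 0.931% and 0.877% of neurons in controls and 0.379% and 0.770% in the Gq/Gi libraries. Both Gq/Gi libraries were lower, with a log2 difference of -0.65 ± 0.52 in edgeR's test over 134 neuronal clusters (adjusted p = 0.709), in which no cluster was called (0%) and 8 had an unadjusted p under 0.05 (5.97%). The difference was -0.23 without Gq/Gi library 1 and -1.25 without Gq/Gi library 2. An exact two-sided permutation test of the share gave p = 0.333, the smallest that 2 libraries against 2 allow. The denominators differed too, with 3696 and 3637 neurons in the Gq/Gi libraries against 2470 and 2736. Among all kept nuclei the log2 difference was -0.16. A share of nuclei cannot tell a change in cells from a change in how they were recovered.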

How the data were processed

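Hindbrain nuclei from a pair of libraries per group were sorted and sequenced with a droplet kit. The authors mapped reads to GRCm38 (mm10) with Cell Ranger 7.0.0 and deposited raw UMI counts per gene and barcode. The authors also deposited the percentage of mitochondrial UMIs per barcode, filtered barcodes on depth and mitochondrial share with Seurat 4.3.0, called doublets with a tool named in their methods as scDblFinder, and clustered nuclei on an scVI embedding made without IEGs. Their annotation was used unchanged, doublets were not called again, and UMI and gene totals per barcode were equal between both sources.

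UMIs were summed per library over the nuclei of the Gcg/Reln cluster and of other neurons, and CPM was taken from these sums. Folds use CPM + 1. Group tests were edgeR 4.0.16 quasi-likelihood tests (TMM, R 4.3.3) with Benjamini-Hochberg adjustment over all genes or clusters tested. The gene test and the interaction were also run on simulated sums per library, and the test of the share was not. These simulated sums held no spread between single nuclei, so they do not show how the tests behave where 1 nucleus holds much of a library. The SE is the log2 difference divided by the root of F. The interaction was fitted with library as a covariate. Alternatives were no TMM factors, other filters on genes, DESeq2 1.42.0, the replicate block, glutamatergic clusters as reference, all kept nuclei as denominator, means per nucleus, thinning to 2000 UMIs, no CPM added and each library left out. Leaving out the deepest nucleus or the nuclei with *Gcg* was added after the data were seen. The cluster held between 206599 and 348228 UMIs per library, which limits the precision of low genes.

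The members and gene lists were chosen with earlier results of these data known. Genes were named if they were on a list, among the 25 of largest fold, or called between groups, and other genes after their values were seen. Positions are from GENCODE M21.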

Additional observations from a re-analysis of the deposited data

Results flagged for a closer look

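The group effect differed between the Gcg/Reln cluster and other neurons, by the test of the interaction, for 6 genes. On the log2 scale *Prlr* differed by 2.10, *Dpyd* by 1.34 and *Efna5* by 1.53, all rising in the Gcg/Reln cluster as given above. *Dgkb*, a diacylglycerol kinase, differed by 1.10 ± 0.23 (edgeR adjusted p = 0.0463), with 680 and 852 CPM in controls of the cluster and 1602 and 1801 CPM in the Gq/Gi libraries, where both were higher. The group test in the cluster did not call it (1.26, adjusted p = 0.112). The difference fell short without control library 1 (0.96, adjusted p = 0.293), Gq/Gi library 1 (adjusted p = 0.914) or Gq/Gi library 2 (adjusted p = 0.926), without TMM factors (adjusted p = 0.0832) and with filterByExpr (adjusted p = 0.0747). *Dgkb* was found in 13 of the nuclei with *Gcg* and in 66 of those without. *Zfpm2*, a transcriptional cofactor, differed by 2.17 ± 0.44 (adjusted p = 0.0439). Of its 90 UMIs in Gq/Gi library 1, 72 came from the deepest nucleus, and without that nucleus it differed by 1.05 (adjusted p = 0.626), without Gq/Gi library 1 by 0.94 (adjusted p = 0.980). *Zfpm2* also fell short without TMM factors (adjusted p = 0.0832) and with filterByExpr (adjusted p = 0.137). *Adarb2*, of the family of RNA-editing enzymes, differed by -3.33 ± 0.65 (adjusted p = 0.0282), with 33 and 8 UMIs in controls and 1 and 3 in the Gq/Gi libraries. Of the 33 UMIs, 18 were in 1 nucleus, and without control library 1 *Adarb2* differed by -2.03 (adjusted p = 0.873). Its UMIs lay in 9 nuclei, all without *Gcg*. Other neurons held 704 to 739 CPM of it.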

How the results depend on the processing

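In the group test, where 3 genes were higher and 0 lower, 8 and 6 were called without TMM factors, 21 and 8 with no filter on genes, 9 and 4 with a UMI in 10% of the nuclei, 18 and 5 without the nucleus of most UMIs, and 1 and 0 without the nuclei with *Gcg*. DESeq2 called 0, and the cause was not tested. Leaving out 1 library gave 3 to 24 higher and 2 to 16 lower. The lone library of a group is then assumed to vary like the other group. Same-numbered libraries correlated by 0.0898 in their deviations over 3839 genes. These sums over few nuclei are noisy, so the value cannot tell whether same-numbered libraries share a batch. The sources used here do not say. With the replicate block 0 genes were called, and *Prlr* differed by 2.04 (edgeR adjusted p = 0.962). The share of neurons differed by -0.72 with the block and by -1.25 to -0.23 with 1 library left out.

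In the test of the interaction, with 6 calls, 3 were called without TMM factors, 2 with filterByExpr and 0 without the nuclei with *Gcg*, and 0 to 16 with 1 library left out. *Reln* ranged from -1.09 to 0.22 when 1 library was left out, turning positive without Gq/Gi library 2. The interaction of *Gcg*, -0.30, ranged from -1.24 to 1.02, turning positive without control library 2 and, at 0.16, without Gq/Gi library 1. *Lepr*, at 1.29 in the whole cluster, differed by -0.082 without the nuclei with *Gcg*. The log2 fold of *Gcg* over other neurons was 8.31 with no CPM added, against 6.11, and that of *Reln* was 2.11 against glutamatergic clusters, against 2.65. The small number of nuclei per library limits all of these values.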
